A study of Mus musculus with 18 samples.

Results

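Open chromatin at the chemokine family was compared between 9 mouse tumours, peripheral T-cell lymphomas called mPTCL, and normal NK, NKT and T cells. Members were the genes whose symbols in the deposited peak annotation begin with Ccl, Ccr, Cxcl, Cxcr, Xcl, Xcr, Cx3cl or Cx3cr and a number, other than Ccl3, Ccl4, Ccl5 and Ccr7. This rule uses names alone. It found 29 of 20326 genes and 82 of 61224 peaks. Receptors made up 12 of the 29 genes and ligands made up the rest. The receptor Cxcr3 and the ligands Cxcl16 and Ccl6 are not analysed here.

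ATAC-seq cuts and tags open chromatin with the Tn5 transposase, so reads pile up where DNA is accessible. The mPTCL libraries came from tumours that grew out of p53KO T cells placed in C57BL/6 CD3KO recipients, and the sorted cells were taken from liver. The 3 NK libraries were WT spleen cells sorted as CD27-negative and CD11b-positive. The 3 NKT libraries were CD3-positive WT liver cells that bound CD1d tetramer with alpha GalCer, although their titles carry the abbreviation Sp. The 3 T libraries were WT spleen cells positive for CD3 and Thy1. All groups were C57BL/6, and each library held 10000 sorted cells. Genotype and sort gate differ together between mPTCL and each normal group, and against NK and T cells the tissue differs as well, so these cannot be told apart. In bulk sorted cells, fewer open cells and less accessibility per cell cannot be told apart either.

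Chemokines are small secreted proteins that steer leukocytes up a gradient, and their receptors are G protein-coupled receptors that act through Gi proteins, PI3 kinase and integrins. The receptors a lymphocyte carries set where it travels: Cxcr5 leads to B-cell follicles, Ccr9 to the gut, Ccr4 to skin and Cxcr6 to the liver sinusoids, where NKT cells patrol. Activated T and NK cells also secrete chemokines, among them Xcl1 and Ccl1. Other family members, such as Cxcl12 and Ccl2, are best known from stromal and myeloid cells.

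Of the 29 genes, 22 had a promoter in RefSeq (build GRCm38.p6, the assembly of mm10). The 4 promoters below were picked from those under a member peak whose accessibility differed between groups by the edgeR test. The promoters of Ccl25, Ccl27a and Cx3cr1 also lay under such a peak and are not printed. Each run is the 250 bases before the RefSeq start, 5′ to 3′ on the gene's own strand. Xcl1 lies at chr1:164935523-164935772 on the minus strand, Cxcr6 at chr9:123806227-123806476 on the plus strand, Ccr4 at chr9:114496545-114496794 on the minus strand and Cxcl10 at chr5:92348890-92349139 on the minus strand. Capitals mark matches, on either strand, to 5 motifs: AGGTGT for T-box factors, TGTGGT for RUNX, AGGAAG for ETS, TGANTCA for AP-1 and CAGNTG for E-box factors.
Xcl1: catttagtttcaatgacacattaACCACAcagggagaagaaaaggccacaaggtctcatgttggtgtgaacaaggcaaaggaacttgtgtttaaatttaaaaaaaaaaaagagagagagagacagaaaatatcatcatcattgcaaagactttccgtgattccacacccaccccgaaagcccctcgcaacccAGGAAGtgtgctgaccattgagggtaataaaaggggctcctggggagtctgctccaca
Cxcr6: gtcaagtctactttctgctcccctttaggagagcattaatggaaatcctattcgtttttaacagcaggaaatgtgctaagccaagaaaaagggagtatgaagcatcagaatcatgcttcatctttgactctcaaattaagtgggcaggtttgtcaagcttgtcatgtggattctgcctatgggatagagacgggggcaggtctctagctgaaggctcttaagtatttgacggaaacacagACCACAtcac
Ccr4: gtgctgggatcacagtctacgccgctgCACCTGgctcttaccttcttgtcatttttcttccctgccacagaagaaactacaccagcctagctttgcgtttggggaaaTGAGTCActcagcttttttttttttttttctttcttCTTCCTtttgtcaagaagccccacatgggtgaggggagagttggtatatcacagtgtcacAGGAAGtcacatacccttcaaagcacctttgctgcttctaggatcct
Cxcl10: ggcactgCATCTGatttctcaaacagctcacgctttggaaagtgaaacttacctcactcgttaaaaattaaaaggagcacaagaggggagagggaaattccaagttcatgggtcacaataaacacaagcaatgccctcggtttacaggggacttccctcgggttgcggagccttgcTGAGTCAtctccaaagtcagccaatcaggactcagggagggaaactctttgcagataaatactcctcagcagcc

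The Xcl1 promoter held 1 RUNX and 1 ETS match, and the Cxcr6 promoter held 1 RUNX match. The Ccr4 promoter held 2 ETS matches, 1 AP-1 match and 1 E-box match, and the Cxcl10 promoter held 1 AP-1 and 1 E-box match. None of the 4 held the T-box letters. Over 32817 RefSeq promoters of the same length, 11.8% held the T-box letters, 14% RUNX, 29.5% ETS, 6.75% AP-1 and 44.8% E-box. A match describes the letters only and is not evidence of binding.

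Read counts in peaks totalled 670358 to 4844441 in mPTCL, 417107 to 596601 in NK, 1433904 to 9097014 in NKT and 979441 to 2358023 in T libraries. CPM below is a library's TMM-scaled count rate, and a gene's CPM sums all of its peaks. The ± after a log2 fold change is its standard error (SE). A gene or peak is called when edgeR's quasi-likelihood test gives a Benjamini-Hochberg adjusted p below 0.05 over all genes or all peaks. Weak features were raised as a whole in mPTCL over NKT: the median log2 fold change was 1.98 in the lowest of 10 level classes of genes and -0.31 in the highest. Another scaling also moved the share of higher calls among all called peaks in mPTCL over NKT, which was 54.5% with TMM, 79.2% with RLE and 42.1% with cyclic loess. For genes the same shares were 55.8% with TMM, 66.5% with RLE and 53.4% with loess. In NK over NKT they were 57.6%, 73.2% and 47.3%, in NK over T 60.1%, 70.9% and 46.8%, and in NKT over T 51.0%, 42.0% and 51.8% of gene calls. Chromosome shares differed too. Chromosome 11, which carries Ccl1, Ccl2, Ccl7, Ccl9 and Ccr10, held a median of 11.3% of counts in mPTCL against 8.04% in NK, 8.26% in NKT and 8.12% in T. Chromosome 9, which carries 9 of the receptor genes, held 4.27% in mPTCL against 4.77% in NK, 5.37% in NKT and 5.13% in T.

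Counted over the 29 genes, mPTCL differed from NKT at 12 genes that were higher and 3 that were lower, which is 51.7% of the family beside 45.6% of all genes (25.5% higher and 20.2% lower). Against T cells 9 genes were higher and 2 lower, 37.9% beside 30.9% of all genes (16.2% higher and 14.7% lower). Against NK cells 4 were higher and 1 lower, 17.2% beside 21.5% of all genes (11.2% higher and 10.3% lower). The family's share was therefore near the background in each lymphoma comparison. Median log2 fold changes of the 29 genes were 0.71 over NKT, 0.92 over T and 0.45 over NK, beside 0.06, 0.12 and 0.13 over all genes. Set against the median of all genes in the same level class, 18, 18 and 16 of the 29 lay above it. The count over T was 7 without T 2.

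**Figure D1:**
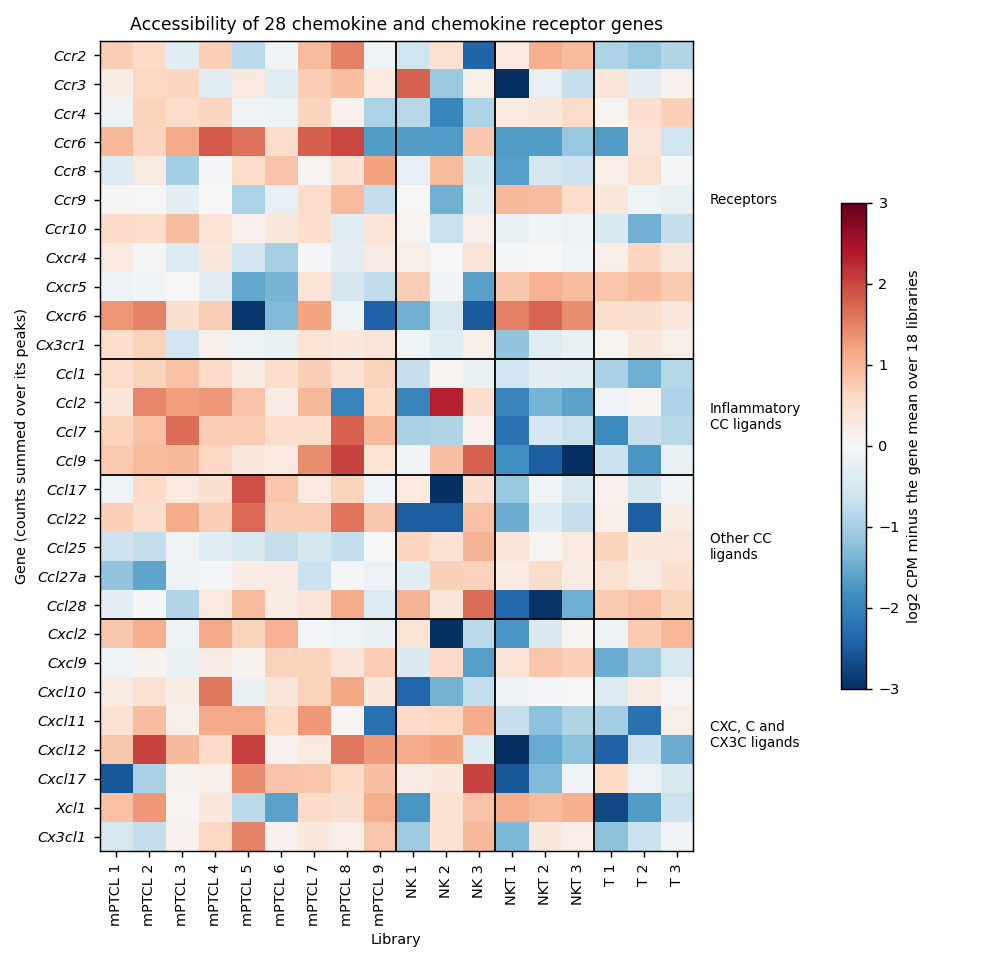
Accessibility of 28 family genes in each of the 18 libraries, as log2 CPM (gene sums) minus the gene's mean over all libraries. Columns are libraries in the order mPTCL, NK, NKT and T, and horizontal lines part receptors, inflammatory CC ligands, other CC ligands and the CXC, C and CX3C ligands; Cxcr6 ranges from 1.06 to 35.4 CPM among the lymphomas, whereas Ccl1 stays between 145.5 and 232 CPM in all 9.

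Among the 12 receptors, Ccr2 was more open in mPTCL than in T cells, and Cxcr5 was less open in mPTCL than in both NKT and T cells. Receptors called in mPTCL numbered 4 higher and 2 lower over NKT, 3 higher and 1 lower over T, and 2 higher and 0 lower over NK. Beside them, 25.5%, 16.2% and 11.2% of all genes were higher and 20.2%, 14.7% and 10.3% lower. The receptors higher over NKT were Ccr6, Ccr8, Ccr10 and Cx3cr1, and those lower were Ccr9 and Cxcr5. Over T, those higher included Ccr2 and Ccr10, and Cxcr5 was lower. Over NK, those higher included Ccr4. Beside the lower chromosome 9 share of mPTCL, scaling within each chromosome gave 4 receptors higher over NKT (Ccr6, Ccr8, Cx3cr1 and Ccr3, without Ccr10) and 1 lower (Cxcr5).

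Ccr2, the receptor for Ccl2 and Ccl7 on monocytes and activated lymphocytes, ran from 15.9 CPM in lymphoma 5 to 81.5 CPM in lymphoma 8, with a median of 42.9 CPM. It had 18.4, 38.8 and 4.74 CPM in NK, 34.3, 60.1 and 54.6 CPM in NKT, and 14.46, 12.3 and 15.0 CPM in T libraries. All 9 lymphomas lay above the 3 T libraries, and the NK libraries were scattered. The fold change over T was 1.48 ± 0.44 (edgeR adjusted p = 0.0119, but 0.0612 without T 2), and promoter peaks alone gave 1.5 and no call. A flanking peak at chr9:124114551-124115051 lies 12618 bp downstream of the RefSeq start. That peak held 8.89 to 44.1 CPM in mPTCL, 6.22, 25.3 and 1.59 CPM in NK, 34.4, 51.2 and 47.0 CPM in NKT, and 10.7, 3.46 and 4.67 CPM in T libraries. Its log2 fold change in mPTCL was 1.95 over T (adjusted p = 0.00894), although lymphoma 5 lay within the T range. Over NKT it was -0.94 (adjusted p = 0.0469), and none of RLE, library totals, loess, DESeq2 and scaling within each chromosome kept that call, with values from -0.57 to -0.48.

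Cxcr5, the receptor for Cxcl13 that draws cells into B-cell follicles, ran from 16.9 CPM in lymphoma 5 to 66.4 CPM in lymphoma 7, with a median of 39.1 CPM. It had 84.1, 47.4 and 15.8 CPM in NK, 88.4, 103 and 97.4 CPM in NKT, and 89.5, 96.2 and 86.5 CPM in T libraries. Every lymphoma lay below every NKT and T library, while the NK libraries spanned the whole range. Cxcr5 was lower at -1.31 ± 0.30 over NKT (edgeR adjusted p = 0.00115) and -1.22 ± 0.31 over T (adjusted p = 0.00419). Both calls held with each of the 18 libraries left out and with scaling within each chromosome (-1.0 and -0.97). Of its 5 peaks, 3 were lower over NKT and 3 over T. Beside this, 19.4% and 11.4% of all peaks were lower, and 31.4% and 17.7% of chromosome 9 peaks. The peaks deposited as intronic at chr9:44515252-44515752 and chr9:44532973-44533473 were lower in both comparisons, at -1.73 and -1.88 over NKT and at -1.33 and -2.03 over T. The first of these lost its call over T without T 2 (-1.09, adjusted p = 0.0932), and the second lost its call over NKT with cyclic loess (-1.53). The promoter peak at chr9:44526314-44526814 was nearly closed in mPTCL. It had 0 to 2.12 CPM in 8 lymphomas and 8.41 CPM in lymphoma 9, against 1.60, 1.21 and 3.02 CPM in NKT and 11.7, 24.2 and 8.41 CPM in T libraries. Its fold change over T was -3.51 ± 0.84 (adjusted p = 0.00334, but 0.0721 without T 2). Promoter peaks alone gave -0.23 for Cxcr5 over NKT and no call. In NK cells the same promoter rested on 1 library: it had 29, 0 and 6.34 CPM, and the fold change of mPTCL over NK was -3.18 (adjusted p = 0.0276) with NK 1 and -1.35 (adjusted p = 0.585) without it.

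Ccr9, the gut-homing receptor for Ccl25, ran from 24.3 to 92.4 CPM in mPTCL with a median of 47.9 CPM. It had 47.2, 17.2 and 38.0 CPM in NK, 94.3, 91.3 and 69.9 CPM in NKT, and 60.6, 43.4 and 41.0 CPM in T libraries. The mPTCL and NKT ranges overlapped, at lymphomas 7 and 8. Over NKT, Ccr9 had a log2 fold change of -0.82 ± 0.27 (edgeR adjusted p = 0.0159), and the call was lost without NKT 1 (adjusted p = 0.0729) or NKT 2 (0.0745) and with scaling within each chromosome (-0.49). The difference sat in a peak 12601 bp upstream at chr9:123754360-123754860, with 4.30 to 40.4 CPM in mPTCL, 29, 4.22 and 3.17 CPM in NK, 79.9, 71.8 and 50.02 CPM in NKT, and 46.9, 32.0 and 30.8 CPM in T. All lymphomas lay below all NKT libraries there, and the peak's log2 fold change was -1.96 ± 0.42 (adjusted p = 0.000597). Cyclic loess gave -1.68 and no call.

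Ccr4, the receptor for Ccl17 and Ccl22 on skin-homing, Th2 and regulatory T cells, had 9.46 to 30.0 CPM in mPTCL with a median of 20.4 CPM. It had 10.2, 4.31 and 9.49 CPM in NK, 23.1, 23.6 and 27.9 CPM in NKT, and 19.9, 26.8 and 31.2 CPM in T libraries. NK cells were the low group. Ccr4 in mPTCL had a log2 fold change over NK of 1.44 ± 0.45 (edgeR adjusted p = 0.0218), but the adjusted p was 0.115 without NK 2 and 0.059 without NK 3, and promoter peaks alone gave 0.71 and no call. At the promoter printed above, the peak chr9:114496321-114496821 had 1.72 to 11.9 CPM in mPTCL, 0, 4.22 and 6.34 CPM in NK, 19.2, 17 and 23.4 CPM in NKT, and 6.39, 12.1 and 20.6 CPM in T libraries. All lymphomas lay below all NKT libraries, with a log2 fold change of -1.69 ± 0.47 (adjusted p = 0.00509).

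Cxcr6, the Cxcl16 receptor of liver NKT and tissue-resident lymphocytes, had a single peak, and it lies over the promoter printed above. The lymphomas spread most widely there. Summed by gene they had 31.6, 35.4, 17.2, 20.9, 1.06, 4.44, 28.4, 10.9 and 1.72 CPM in lymphomas 1 to 9. Values were 4.10, 8.62 and 1.58 CPM in NK, 36.3, 43.0 and 33.5 CPM in NKT, and 18.1, 17.4 and 15.8 CPM in T libraries. Lymphomas 5, 6 and 9 were at NK levels, lymphoma 2 lay within the NKT range and lymphoma 1 just below it. The gene's log2 fold change was -1.15 ± 0.53 over NKT (edgeR adjusted p = 0.0744) and -0.00 ± 0.60 over T (adjusted p = 0.997), neither called. In the fit of single peaks, whose library scaling differs, every lymphoma lay below the NKT libraries, and the peak was lower in mPTCL than in NKT cells at -1.48 (adjusted p = 0.014). That call was lost with RLE (-1.03), library totals (-1.11), DESeq2 (-1.04), loess (-1.68) and scaling within each chromosome (-1.09).

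**Figure D2:**
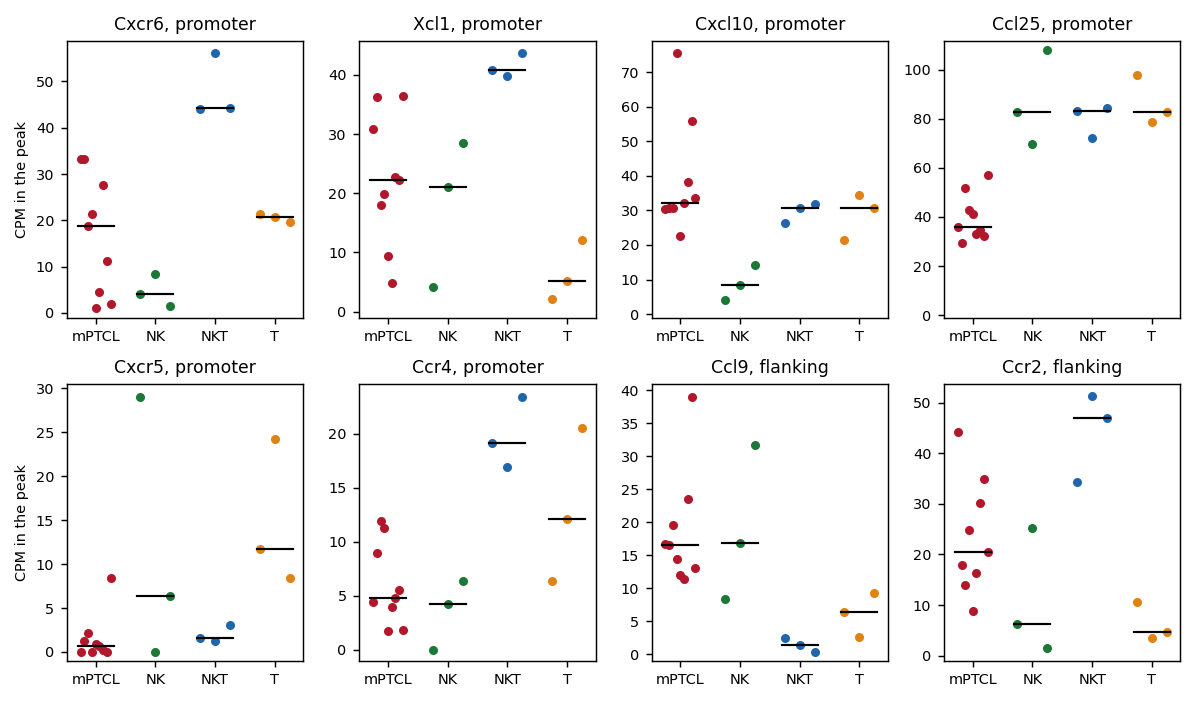
CPM of 8 named peaks in each library, scaled by the fit of single peaks, one point a library and a black line at the group median, with mPTCL, NK, NKT and T from left to right. On that scale all lymphomas lie below the NKT libraries at the Cxcr6 and Ccr4 promoters (on the gene scale lymphoma 2 is above NKT 3 at Cxcr6), below every normal library at the Ccl25 promoter and above every NK library at the Cxcl10 promoter.

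Cx3cr1, the fractalkine receptor of mature NK cells and effector T cells, ran from 71.1 to 170 CPM in mPTCL with a median of 130 CPM. It had 96.4, 81.9 and 119 CPM in NK, 46.2, 82.3 and 90.9 CPM in NKT, and 111, 133 and 118 CPM in T libraries. Its log2 fold change over NKT was 0.71 ± 0.23 (edgeR adjusted p = 0.015), but 0.49 (adjusted p = 0.134) without NKT 1. Of its 11 peaks 1 has its centre in the RefSeq gene, and the farthest lies 98040 bp downstream of the start. The peak at chr9:119981275-119981775, with 1047 of the 5384 counts, lies in Csrnp1, 1498 bp from its start, and also carries that symbol. Other peaks also carry the symbol Gm33858, so the assignment to Cx3cr1 is the deposited annotation's. Ccr10, the receptor for Ccl27 and Ccl28, ran from 27.2 to 67.0 CPM in mPTCL with a median of 46.3 CPM, and had 25.3, 12.3 and 21.1 CPM in T libraries. The mPTCL and T ranges did not overlap, and the log2 fold change was 1.28 ± 0.27 (adjusted p = 0.00103) or 0.78, still called, with scaling within each chromosome. Over NKT, at 29.7, 32.6 and 30.5 CPM, Ccr10 was higher by 0.61 ± 0.24 (adjusted p = 0.0416), and scaling within each chromosome took this to 0.15 and no call.

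Ccr8, the Ccl1 receptor of regulatory and Th2 cells, had 10.4 to 51.6 CPM in mPTCL and 6.6, 15.1 and 14.1 CPM in NKT, a log2 fold change of 1.15 ± 0.38 (edgeR adjusted p = 0.0167, but 0.0946 without NKT 1). Cyclic loess gave 1.02 and no call. Ccr6, the receptor for Ccl20, was barely open anywhere. Its 1 peak held 125 counts over the 9 lymphomas, 2 in NK, 3 in NKT and 5 in T libraries, and the ratio of CPM in mPTCL over NKT was 31.65 with an exact 95% counting interval of 10.6 to 155.5. The fitted log2 fold change of 4.64 ± 1.06 (adjusted p = 0.00122) stands beside a median of 1.98 for all genes of that level, and cyclic loess gave 0.37 and no call. Ccr6 was at 0 in lymphoma 9. Ccr3, the eotaxin receptor, was not called in any lymphoma comparison as fitted, but scaling within each chromosome called it higher over NKT. The log2 fold change of Cxcr4, the Cxcl12 receptor found on most lymphocytes, was -0.53 ± 0.23 over T (adjusted p = 0.0753) with 28.7 to 72.5 CPM in mPTCL and 66.0, 91.8 and 73.7 CPM in T libraries. Its intronic peak at chr1:128591100-128591600 was called lower over T, at -1.41 ± 0.42 (adjusted p = 0.017). That call was lost without T 1 (adjusted p = 0.0652), T 2 (0.1345) or T 3 (0.05215), with loess (-1.39) and with scaling within each chromosome (-1.145).

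**Figure D3:**
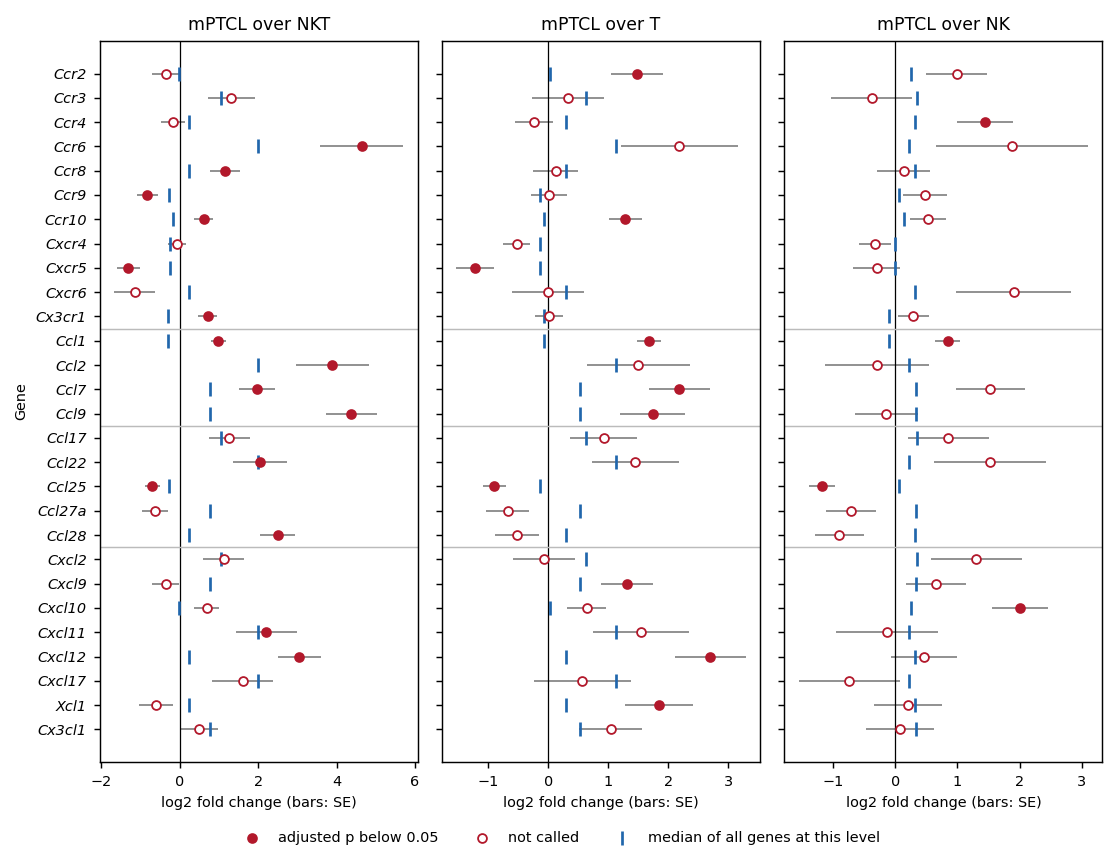
Log2 fold change (x axis, bars are SE) of 28 family genes in mPTCL over NKT, T and NK, with filled points for genes called at an adjusted p below 0.05. Blue ticks give the median of all genes of the same level. Ccr6, Ccl2, Ccl22, Cxcl11 and Cxcl17 fall in the lowest level class, where that median is 1.98 over NKT.

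All 4 inflammatory CC ligands measured (Ccl1, Ccl2, Ccl7 and Ccl9) were called higher over NKT, 3 over T and 1 over NK. All 4 lie on chromosome 11. Beside these counts, 25.5%, 16.2% and 11.2% of all genes were higher, and 40.9%, 34.1% and 28.8% of chromosome 11 genes. With scaling within each chromosome the counts of these 4 ligands were 4, 2 and 0. Ccl1, the Ccr8 ligand made by activated T cells, had the most counts of the family when summed over its 14 peaks and all libraries. In T libraries its mean of 59.4 CPM lay below that of other members, such as Cx3cr1 (120.9 CPM) and Cxcr5 (90.7 CPM). Ccl1 varied little among lymphomas. It ran from 145.5 to 232 CPM in mPTCL with a median of 189 CPM, against 77.9, 134 and 108 CPM in NK, 84.5, 104 and 99.9 CPM in NKT, and 64.2, 44.8 and 69.2 CPM in T libraries. No lymphoma overlapped any normal library. The log2 fold changes were 1.68 ± 0.20 over T (edgeR adjusted p = 2.455e-06), 0.98 ± 0.19 over NKT (adjusted p = 0.000216) and 0.84 ± 0.20 over NK (adjusted p = 0.00373). Scaling within each chromosome gave 1.17, 0.52 and 0.27, the last not called. The SD of log2 CPM among lymphomas was 0.19, beside a median of 0.33 for genes of the same level.

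The Ccl1 signal was spread over 14 peaks, none of which overlaps the 250 bases before the RefSeq start. Only 1 has its centre inside the 3147 bp RefSeq gene, and the farthest lies 91956 bp upstream of its start, so the assignment of these peaks to Ccl1 is the deposited annotation's. Over NKT 8 of the 14 peaks were higher in mPTCL, over T 8 and over NK 1, and none was lower. Of all peaks 23.2%, 8.27% and 6.03% were higher, and of chromosome 11 peaks 31.9%, 13.2% and 11.2%. With scaling within each chromosome 7, 3 and 0 of the 14 were higher and none was lower. The tallest in mPTCL, at chr11:82214249-82214749 and 34687 bp upstream, had 37.4 to 64.5 CPM in mPTCL, 12.4, 29.5 and 19.0 CPM in NK, 44.8, 57.5 and 54.0 CPM in NKT, and 6.39, 13.8 and 18.2 CPM in T libraries. The mPTCL and NKT ranges overlapped, with a log2 fold change of -0.04 ± 0.26 (adjusted p = 0.918), and both lay above all NK and T libraries. Its log2 fold change in mPTCL was 1.92 over T (edgeR adjusted p = 6.96e-05) and 1.33 over NK (adjusted p = 0.011, or 0.88 and no call with scaling within each chromosome). The weaker peak 25589 bp upstream, at chr11:82205151-82205651, had 5.02 to 13.6 CPM in mPTCL and 8.29, 4.22 and 7.93 CPM in NK, against 0, 0.303 and 0.959 CPM in NKT libraries, and no mPTCL or NK library overlapped the NKT range. That peak's log2 fold change over NKT was 3.93 (adjusted p = 0.000188) in mPTCL.

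**Figure D4:**
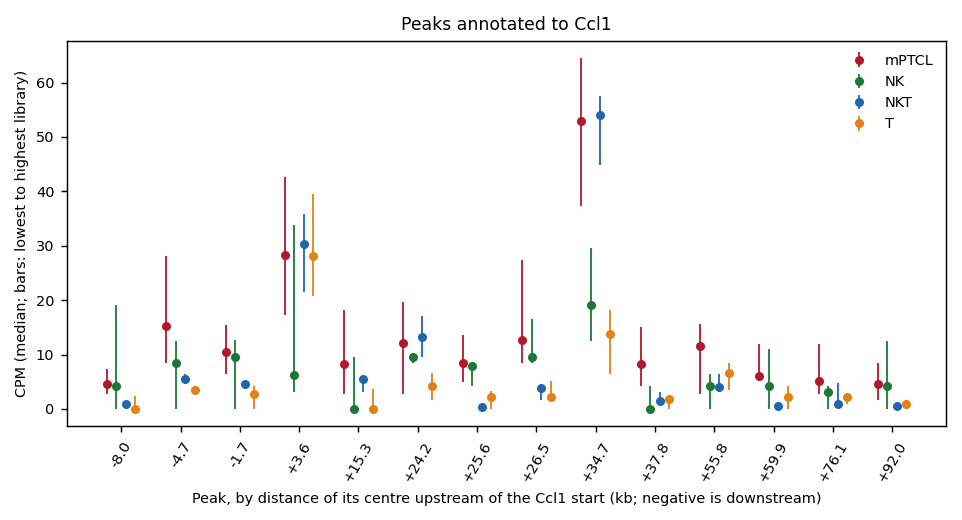
CPM of the 14 peaks annotated to Ccl1 (points are group medians, bars run from the lowest to the highest library) by distance of the peak centre from the RefSeq start in kb, with positive values upstream. The peak 34687 bp upstream is high in mPTCL and NKT libraries, at medians of 53.0 and 54.0 CPM, and low in NK and T libraries.

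Ccl7, a monocyte attractant that acts on Ccr2, had 12.7 to 31.2 CPM in mPTCL, above all normal libraries (4.10, 4.31 and 9.49 CPM in NK, 1.32, 5.92 and 5.18 CPM in NKT, 1.81, 5.06 and 4.51 CPM in T). The log2 fold change was 2.18 ± 0.51 over T (edgeR adjusted p = 0.0022) and 1.97 ± 0.46 over NKT (adjusted p = 0.00133), and 1.53 ± 0.56 over NK without a call. The Ccl7 signal was that of 1 flanking peak, whose centre lies outside the RefSeq gene. Ccl9, a mouse chemokine that attracts myeloid cells through Ccr1, had 11.0 to 38.0 CPM in mPTCL, 8.20, 17.2 and 31.6 CPM in NK, 1.98, 1.05 and 0.207 CPM in NKT, and 5.42, 2.17 and 7.52 CPM in T. The Ccl9 signal was that of 1 flanking peak, 9383 bp downstream of the RefSeq start and outside the gene. The lymphomas overlapped the NK libraries there and no others. Ccl9 was higher over NKT by 4.38 ± 0.65 (adjusted p = 1.677e-05) and over T by 1.74 ± 0.54 (adjusted p = 0.0171). The second call was lost without T 1 (adjusted p = 0.0571), without T 2 (0.106), with cyclic loess (1.29) and with scaling within each chromosome (1.23). Ccl2, the main monocyte attractant, reached at most 6.81 CPM in any lymphoma, and its log2 fold change over NKT of 3.89 ± 0.93 (adjusted p = 0.00169) became 0.31 and no call with cyclic loess. The median over NKT for all genes of its level was 1.98, and the NKT libraries held 5 counts of Ccl2.

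Among the other CC ligands, Ccl25 was lower in mPTCL than in each normal group. Of the 5 measured, 2 were higher and 1 lower in mPTCL over NKT, 0 higher and 1 lower over T, and 0 higher and 1 lower over NK. The shares of all genes were 25.5%, 16.2% and 11.2% higher and 20.2%, 14.7% and 10.3% lower. Ccl25, the Ccr9 ligand of thymus and small intestine, had 31.2 to 52.5 CPM in mPTCL, 82.0, 71.1 and 108 CPM in NK, 68.6, 55.3 and 64.0 CPM in NKT, and 83.2, 65.8 and 66.5 CPM in T libraries. No lymphoma reached any normal library. The log2 fold changes were -1.19 ± 0.21 over NK (edgeR adjusted p = 0.000258), -0.90 ± 0.20 over T (adjusted p = 0.00126) and -0.70 ± 0.19 over NKT (adjusted p = 0.00475). Cyclic loess gave -0.49 over NKT and no call. Its 1 peak, at chr8:4325035-4325535, also carries the symbol of the RNA-binding protein gene Elavl1, so the signal cannot be assigned to either gene. Ccl28, a mucosal ligand of Ccr10 and Ccr3, was nearly closed in NKT cells. It had 10.4 to 43.5 CPM in mPTCL with a median of 23.7 CPM, 41.0, 25.9 and 64.8 CPM in NK, 3.30, 1.98 and 6.74 CPM in NKT, and 34.4, 36.9 and 31.9 CPM in T libraries. The fold change of mPTCL over NKT was 2.50 ± 0.44 (adjusted p = 0.000102). Ccl22, a Ccr4 ligand of dendritic and activated T cells, had 4.77 to 11.6 CPM in mPTCL and 0.660, 2.21 and 1.66 CPM in NKT. The 1 peak of Ccl22 lies 10144 bp downstream of the RefSeq start, outside the gene, and also carries the symbol Gnb1-ps3. The log2 fold change of Ccl22, 2.04 ± 0.69 (adjusted p = 0.0184), stands beside a median of 1.98 for its level class. It became 0.24 and no call with cyclic loess, and was lost without NKT 1 (adjusted p = 0.0691) or NKT 3 (0.0728). As fitted, Ccl17, the other Ccr4 ligand, and Ccl27a, a skin ligand of Ccr10, were not called between mPTCL and any normal group at the gene level. With scaling within each chromosome 3 of the 5 ligands of this list were higher over NKT and 2 lower, so both were called. In the fit of single peaks the 1 peak of Ccl27a, at its promoter, was called lower in mPTCL over NKT (-0.93). With scaling within each chromosome that peak was called lower over both NKT and T.

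Of the 8 CXC, C and CX3C ligands measured, 2 were higher in mPTCL over NKT (Cxcl12 and Cxcl11), 3 over T (Xcl1, Cxcl9 and Cxcl12) and 1 over NK (Cxcl10), and none was lower. Of all genes 25.5%, 16.2% and 11.2% were higher and 20.2%, 14.7% and 10.3% lower. With scaling within each chromosome 1 of the 8 ligands was higher over NKT (Cxcl12) and 1 lower (Cxcl9). Xcl1, the lymphotactin of CD8 T and NK cells that recruits Xcr1-positive dendritic cells, had 29.3, 38.8, 16.5, 19.4, 8.73, 4.65, 23.5, 21.7 and 33.5 CPM in lymphomas 1 to 9. It had 4.10, 21.6 and 28.5 CPM in NK, 33.6, 30.6 and 33.1 CPM in NKT, and 1.81, 4.34 and 9.77 CPM in T libraries. Of the lymphomas, 5 and 6 fell within the T range and the other 7 lay above it. Over T, Xcl1 had a log2 fold change of 1.84 ± 0.56 (edgeR adjusted p = 0.0143, but 0.0865 without T 1 and 0.0722 without T 2). Its single peak covers the promoter printed above, and the fit of single peaks gave 1.60 (adjusted p = 0.0304).

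Cxcl10, an interferon-induced ligand of Cxcr3, had 20.9 to 73.7 CPM in mPTCL with a median of 31.1 CPM, 4.10, 8.62 and 14.2 CPM in NK, 21.8, 23.5 and 24.1 CPM in NKT, and 18.1, 28.9 and 24.8 CPM in T libraries. All 9 lymphomas lay above all NK libraries. The log2 fold change over NK was 2.0 ± 0.45 (edgeR adjusted p = 0.00246), or 1.49 and still called with scaling within each chromosome. Cxcl9, a second interferon-induced ligand, was higher over T by 1.31 ± 0.43 (adjusted p = 0.0228), with 9.70 to 19.8 CPM in mPTCL and 3.62, 5.06 and 7.89 CPM in T. That call was lost without T 1 (adjusted p = 0.11) or T 2 (0.0904), with cyclic loess (0.94) and with scaling within each chromosome (0.87). Cxcl9 had 2 peaks that differed in opposite directions over NKT. The intronic peak at chr5:92327193-92327693 was lower in mPTCL, at -1.345 ± 0.38 (adjusted p = 0.00618, or -0.89 and no call with RLE), and the flanking peak at chr5:92320598-92321098 was higher by 3.03 ± 0.89 (adjusted p = 0.00785), with loess giving 0.76 and no call for the second. Cxcl11, the third of these ligands, was called higher over NKT at 2.21 ± 0.77 (adjusted p = 0.0219), near the median of 1.98 for its level. With loess its sign turned (-0.41), scaling within each chromosome gave 1.71 and no call, and the adjusted p was 0.112 without NKT 2 and 0.0795 without NKT 3.

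Cxcl12, the stromal ligand of Cxcr4, had 14.2 to 55.3 CPM in mPTCL with a median of 26.0 CPM, 28.7, 30.2 and 9.49 CPM in NK, 0, 4.07 and 5.08 CPM in NKT, and 1.81, 7.95 and 4.13 CPM in T libraries. The lymphomas lay above all NKT and T libraries and overlapped the NK libraries. The log2 fold change was 3.05 ± 0.55 over NKT (edgeR adjusted p = 0.000132) and 2.69 ± 0.59 over T (adjusted p = 0.00136). All 4 of its peaks were called higher over NKT, beside 23.2% of all peaks, and none of these 4 calls held with cyclic loess. A flanking peak at chr6:117183701-117184201 held 109 counts in mPTCL and 1 count in the T libraries, a CPM ratio of 18.3 with an exact 95% counting interval of 3.22 to 729.9. Its call over T (adjusted p = 0.0219) was lost without T 1 (0.0746), T 2 (0.0816) or T 3 (6.57, 0.0539). Cxcl2, a neutrophil attractant, Cxcl17, a mucosal chemokine, and Cx3cl1, the Cx3cr1 ligand fractalkine, were not called between mPTCL and any normal group.

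Among the normal cells, Cxcr6, Ccr4 and Ccr9 were less open in NK than in NKT cells, and Ccr2 and Xcl1 were more open in NKT than in T cells. NK over NKT gave 4 genes higher and 4 lower, which is 27.6% of the family beside 14.8% of all genes (8.51% higher and 6.28% lower). NKT over T gave 4 higher and 2 lower, 20.7% beside 4.55% (2.32% higher and 2.23% lower). NK over T gave 1 higher and 1 lower, 6.90% beside 5.48% (3.29% higher and 2.19% lower). Those lower in NK than in NKT cells included the receptors Cxcr6 (-3.05 ± 0.97, edgeR adjusted p = 0.0333), Ccr4 (-1.61 ± 0.49, 0.0268) and Ccr9 (-1.30 ± 0.40, 0.0286). Higher in NK than in NKT cells were Ccl9 (4.52 ± 0.74, 0.000209), Ccl28 (3.40 ± 0.52, 0.000109), Ccl2 (4.19 ± 1.16, 0.0159) and Cxcl12 (2.59 ± 0.66, 0.0102). Those higher in NKT than in T cells included Ccr2 (1.84 ± 0.49, 0.027), Xcl1 (2.45 ± 0.62, 0.0202) and Cxcl9 (1.67 ± 0.49, 0.0437), and lower were Ccl28 (-3.03 ± 0.50, 0.000502) and Ccl9 (-2.64 ± 0.73, 0.0337). NK over T called Ccl1 higher (0.83 ± 0.24, 0.0401) and Ccr4 lower (-1.68 ± 0.50, 0.0442). These comparisons share libraries, so their lists are not independent.

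Several of these calls between normal groups lay near the threshold and were lost when 1 library was left out, some with little change in fold change. The NK over NKT count of genes was 3 without NK 2, 4 without NK 3, NKT 2 or NKT 3, and 5 without NKT 1. The NKT over T count was 2 without T 1, NKT 2 or NKT 3, and 3 without T 2 or T 3. The NK over T count was 0 without any 1 of NK 2, NK 3, NKT 2, NKT 3, T 1, T 2 and T 3. The Cxcr6 call of NK over NKT was lost when any 1 of the 6 NK and NKT libraries was left out (adjusted p from 0.0528 to 0.158). Its log2 fold change stayed between -3.78 and -2.57. Ccr4 over NKT was lost without NK 2, NK 3, NKT 2 or NKT 3 (0.0576 to 0.105), Ccr9 without NK 2, NK 3, NKT 1 or NKT 2 (0.0752 to 0.135), Ccl2 without NK 2 (2.65, 0.282) or NKT 3 (0.0588) and Cxcl12 without NK 2 (0.0512). Ccr2 in NKT over T was lost without NKT 2, NKT 3, T 1, T 2 or T 3 (0.083 to 0.121), Xcl1 without any 1 NKT library, T 1 or T 2 (0.0563 to 0.1105), and Ccl9 without NKT 2, NKT 3, T 1 or T 3 (0.0856 to 0.23). Cxcl9 in NKT over T was lost without any 1 of the NKT and T libraries, mPTCL 4 or mPTCL 7 (0.0544 to 0.18). Ccl28 kept its calls, and Ccl9 of NK over NKT kept its own, in all 18 of these fits. Cyclic loess took Ccl2 in NK over NKT to 0.26 and Ccl9 in NKT over T to -1.36, neither called, and also made no call of Ccr2 in NKT over T or Ccr9 in NK over NKT. RLE lost Ccr9 in NK over NKT, Ccr4 in NK over T and Cxcl9 in NKT over T.

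The Ccl28 difference sat mainly in 1 intronic peak at chr13:119631576-119632076. It held 1.06 CPM in lymphoma 3 and 8.83 to 27.9 CPM in the other lymphomas, 29, 21.1 and 31.7 CPM in NK, 1.60, 0.606 and 0.822 CPM in NKT, and 32.0, 27.7 and 27.1 CPM in T libraries. NKT cells and lymphoma 3 were low, and all other libraries were open. The log2 fold change was 3.94 for mPTCL over NKT (edgeR adjusted p = 3.19e-05), 4.96 for NK over NKT (adjusted p = 7.03e-05) and -5.04 for NKT over T (adjusted p = 4.19e-05). At the flanking peak of Ccr2 the NKT over T value was 2.89 ± 0.59 (adjusted p = 0.00217). At the Xcl1 promoter, with 40.8, 39.8 and 43.7 CPM in NKT and 2.13, 5.19 and 12.2 CPM in T, it was 2.53 (adjusted p = 0.00773, but 0.0754 without T 1 and 0.0677 without T 2).

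Peak by peak, mPTCL over NKT called 25 of the 82 higher and 11 lower, 43.9% beside 42.6% of all peaks (23.2% higher and 19.4% lower), but 36 and 6 with RLE and 42 and 7 with DESeq2. For mPTCL over T the counts were 17 and 5, 26.8% beside 19.7% (8.27% higher and 11.4% lower), or 29 and 5 with DESeq2 and 10 and 5 with scaling within each chromosome. For mPTCL over NK they were 2 and 2, 4.88% beside 9.79% (6.03% higher and 3.76% lower). NK over NKT called 9 and 9, 22.0% beside 17.1% (6.81% higher and 10.3% lower), but 15 and 4 with RLE or library totals and 20 and 4 with DESeq2. NKT over T called 5 and 3, 9.76% beside 5.23% (3.48% higher and 1.75% lower). Among all called peaks of mPTCL over T, 42.0% were higher with TMM and 63.5% with RLE, and of NK over NKT 39.7% and 76.2%, of NK over T 42.2% and 71.7%, and of NKT over T 66.5% and 50.4%. NK over T called 0 peaks by edgeR beside 4.8% of all peaks (2.02% higher and 2.77% lower), with 17 at an unadjusted p below 0.05, 4 by DESeq2 and 3 by limma on cyclic-loess values. That count was 3 without NK 1 and 1 without NK 2, T 2 or mPTCL 4. The count over NKT was 22 without NKT 2, and over T it was 12 without T 1, 8 without T 2 and 13 without T 3. The count over NK was 7 without NK 2, NK over NKT was 9 without NK 3, 10 without NKT 1 and 7 without NKT 2, and NKT over T was 4 without T 1 and 5 without T 2, NKT 2 or NKT 3. By deposited class the family had 18 promoter peaks of 82 (22.0%, against 32.6% of all peaks), 37 intronic (45.1% against 31.7%) and 18 flanking (22.0% against 9.31%). The family can hold none of the 15.7% of all peaks that are intergenic and carry no symbol, which raises its shares of the other classes by construction. Only 27 of the 82 peak centres lie inside the RefSeq gene of that symbol, and 11 peaks carry another symbol as well.

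**Figure D5:**
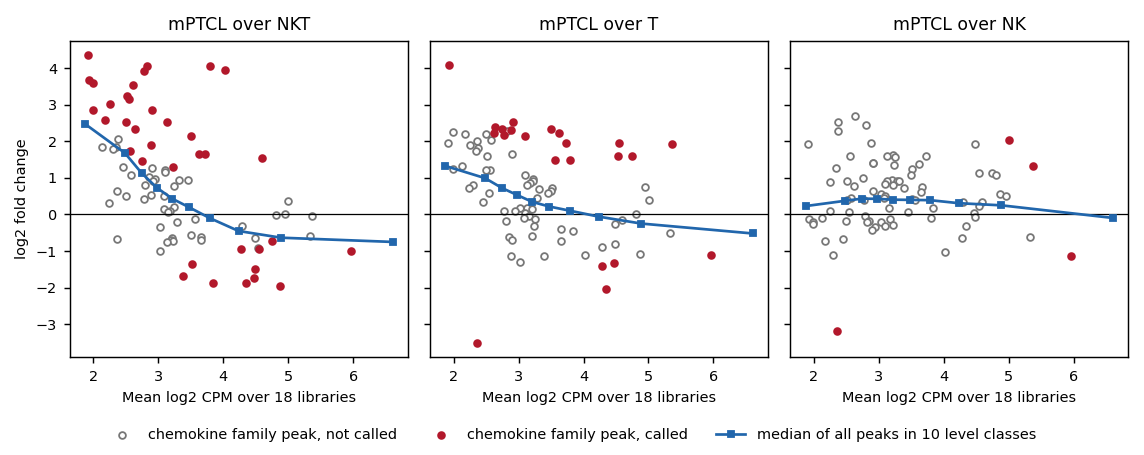
Log2 fold change of the 82 peaks against their mean log2 CPM over 18 libraries, for mPTCL over NKT, T and NK, with filled points for called peaks. The blue line is the median of all peaks in 10 level classes; over NKT it runs from 2.47 in the weakest class to -0.75 in the strongest, and 40 of the 82 peaks lie above it.

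The spread among the 9 lymphomas was uneven over the family. In 19 of the 29 genes the SD of log2 CPM was above the median for genes of the same level. Cxcr6 had the largest SD at 1.65 beside 0.51 for its level, and its highest lymphoma held 33.5 times the CPM of its lowest. Dividing each library by its share of counts on chromosome 9 left a ratio of 27.6. Xcl1 followed among genes detected in every lymphoma, with an SD of 0.93 and a ratio of 8.35. The ratio was 5.135 for Ccr2, 3.92 for Cxcr5 and 3.80 for Ccr9, and after division by the chromosome 9 share 3.57, 2.88 and 2.86. Lymphoma 5 was the lowest at Cxcr6, Ccr2, Cxcr5 and Ccr9, and lymphoma 6 was the lowest at Xcl1 and Cxcr4. Lymphomas 5 and 6 had the lowest chromosome 9 shares, 3.35% and 3.08%, and the part of this in the chromosome 9 receptors was not tested beyond that division. Xcl1 and Cxcr4 lie on chromosome 1, and division by that chromosome's share left the Xcl1 ratio at 8.32. Ccl1 and Ccl25 varied least, with SDs of 0.19 and 0.27.

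Genes that work with the family but do not match its names were counted from lists. Atypical chemokine receptors do not signal through G proteins, and 3 were measured. Of these, Ackr4 was higher in mPTCL over NKT by 4.33 ± 1.34 (edgeR adjusted p = 0.011) and Ccrl2 was higher over T by 1.275 ± 0.33 (adjusted p = 0.00527). A further 27 measured genes carry or limit the receptor signal. Of these, 2 were higher and 10 lower in mPTCL over NKT, 3 and 6 over T, and 2 and 7 over NK. Of all genes 45.6%, 30.9% and 21.5% were called, and 20.2%, 14.7% and 10.3% were lower. With scaling within each chromosome the counts were 2 and 11, 1 and 4, and 1 and 2. Rgs2, which shortens G protein signalling, was lower over NK at -1.44 ± 0.21 (adjusted p = 3.489e-05) and over T at -1.06 ± 0.20 (adjusted p = 0.0004). Rgs16, of the same protein family, was higher over NKT by 1.90 ± 0.48 (adjusted p = 0.00271), and Rassf5, a link from Rap1 to integrins, was lower at -0.67 ± 0.15 (adjusted p = 0.000937). The fall of Elmo1, a Rac activator partner, over NKT (-0.76 ± 0.17, adjusted p = 0.000853) became -0.17 and no call with scaling within each chromosome.

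Markers of other cells moved with some of these results. Summed over 5 of 10 listed myeloid and Kupffer cell genes, CPM ran from 101 to 144 in mPTCL, 103 to 160 in NK, 54.1 to 67.0 in NKT and 59.7 to 69.9 in T libraries. The members of that list did not move together. Spi1 had 32.6 to 83.35 CPM in mPTCL, 72.7 to 96.4 in NK, 38.1 to 46.4 in NKT and 34.35 to 38.3 in T libraries. The ranges of Cd14 overlapped in all groups. Of the 5 genes, 2 were called higher in mPTCL over NKT, 2 over T, 2 in NK over NKT and 1 in NK over T. The shares of all genes called higher there were 25.5%, 16.2%, 8.51% and 3.29%. Ccl9, a ligand often made by myeloid cells, was higher in every mPTCL and NK library than in any NKT or T library. The NK range of Ccl7 overlapped those of NKT and T. Over 5 of 8 endothelial and stromal genes the sums were 142 to 238 CPM in mPTCL, 136 to 261 in NK, 99.0 to 116 in NKT and 140 to 180 in T libraries. The T range of that sum overlapped that of mPTCL, but its members differed. Pecam1, the largest part in T libraries, had 96.2 to 133.4 CPM there and 36.8 to 116.6 CPM in mPTCL. The T and mPTCL ranges of Cdh5 and Pdgfrb overlapped as well. Stab2 (6.88 to 62.7 CPM in mPTCL, 3.615 to 5.42 in T) and Col1a1 (39.9 to 80.2 and 28.9 to 31.2) did not overlap. Cxcl12 in T libraries, at 1.81 to 7.95 CPM, also lay below every mPTCL library. G6pc, the 1 hepatocyte gene measured of 6, had 13.6 to 68.3 CPM in mPTCL, 8.20 to 47.4 in NK, 2.64 to 5.81 in NKT and 2.71 to 7.14 in T libraries. The 4 measured of 7 B-cell genes had 90.2 to 178 CPM in mPTCL, 90.1 to 156 in NK, 38.9 to 40.8 in NKT and 60.7 to 70.3 in T libraries. The part of these cells in the results was not tested. Of the labelled lymphocytes, the 6 T-cell genes summed to 73.9 to 210 CPM in mPTCL, 123 to 158 in NK, 538 to 620 in NKT and 271 to 320 in T libraries, and 5 of 6 NK-cell genes to 145 to 234, 180 to 226, 52.8 to 66.2 and 54.2 to 101 CPM.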

How the data were processed

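ATAC-seq counts of 18 libraries were analysed. The values deposited are raw read counts over 500 bp peaks, for 61224 peaks (main) and 27727 peaks (alternative). MACS2 2.1.2, bedtools and edgeR 3.24.3 were named with build mm10, per the submitters' processing notes; no source used here names an aligner, a duplicate filter, a Tn5 shift or how peaks were selected. Peak classes and symbols are the authors' own, and 15.7% of peaks in the larger table have no symbol. Peak positions are the deposited ones, with no statement of a first base of 0 or 1. Per the labels, 9 libraries were mPTCL and 3 each NK, NKT and T; lymphoma numbers follow accession order. Separate animals are not named for the normal libraries, and their p-values then reflect sample-to-sample spread that may be technical.

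The test was that of edgeR 4.0.16 in R 4.3.3 (TMM, filterByExpr, 1 quasi-likelihood fit of 18 libraries and 4 groups, 14 residual degrees of freedom), over 61220 peaks, and separately over 20326 genes whose counts were summed over all peaks with the symbol. All 29 family genes and all 82 family peaks passed the low-count filter. Benjamini-Hochberg adjustment ran over all features of a comparison, two-sided, threshold 0.05. The biological coefficient of variation was 0.431 for peaks and 0.297 for genes. Per-library log2 CPM used a prior count of 2. Ratios against 1 to 3 counts have exact binomial intervals at 95% confidence that cover only counting error, because reads amplified by PCR and lacking molecular identifiers are not independent. Alternatives were RLE, library totals, cyclic loess with limma 3.58.1, TMM within each chromosome, DESeq2 1.42.0, no low-count filter, the smaller table, promoter and 5′ UTR peaks only, a replicate block for the normal groups, and each library left out.

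The family members and all gene lists were chosen with earlier results of these data known. Named genes were 18 fixed symbols, of which those with a peak are given, plus per comparison the 10 called member genes of largest fold change and the 5 called member peaks of largest fold change in each direction. Other values named were chosen after they were seen: the second peak of Cxcl9, Ccr10 and Ccl25 over NKT, and the genes given as not called. The same holds for the peak of Ccl27a and for the single myeloid and stromal marker genes. The values of 1 family gene are not reported here, although it is part of the counts.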

Additional observations from a re-analysis of the deposited data

Results flagged for a closer look

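Among the 9 lymphomas, 4 of the 29 genes had 1 library far from the others, by a gap beyond Dixon's critical value at 95% confidence on log2 CPM. Chance alone sets apart about 1 in 20 groups, and 3 of the 4 are libraries with no count at a gene of very low level. Ccl17, a Ccr4 ligand, was at 4.79 in lymphoma 5, or 27.0 CPM, while the other lymphomas had 6.02 to 12.2 CPM. Ccl2 was at -0.55 in lymphoma 8, which had no count there. Ccr6 and Cxcl11 were each at -0.55 in lymphoma 9, which had no count at either gene. Lymphomas 8 and 9 were the shallowest of the 9, with 670358 and 1040523 counts in peaks.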

How the results depend on the processing

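Counts of called family genes were within 1.5 times of those given except as follows. In mPTCL over NKT (15 called) cyclic loess gave 9 and 6 each came from the smaller table and from promoter peaks alone. In mPTCL over T (11) the smaller table gave 7 and promoter peaks 4, and in mPTCL over NK (5) loess gave 9. In NK over NKT (8) the smaller table and promoter peaks gave 1 each. In NK over T (2) RLE gave 1, loess 4, DESeq2 4, and the smaller table and promoter peaks 0 each. In NKT over T (6) the smaller table gave 3 and promoter peaks 2. Only 16 of the genes and 27 of the peaks are in the smaller table. For peaks, mPTCL over NKT (36) had 11 with loess and 9 in the smaller table, mPTCL over T (22) had 13 with loess, 34 with DESeq2 and 7 in the smaller table, and mPTCL over NK (4) had 7 with loess. NK over NKT (18) had 10 with loess and 2 in the smaller table, NK over T (0) had 3 with loess, 1 with scaling within each chromosome and 4 with DESeq2, and NKT over T (8) had 4 in the smaller table. The cause was not tested. With each library left out, counts in the 6 comparisons, in the order mPTCL over NKT, over T, over NK, NK over NKT, NK over T and NKT over T, ranged over 10 to 17, 7 to 12, 4 to 6, 3 to 8, 0 to 3 and 2 to 6 for genes, and 22 to 38, 8 to 24, 4 to 7, 7 to 20, 0 to 3 and 4 to 8 for peaks. Of single fold changes, 1 turned its sign: Cxcl11 in mPTCL over NKT, at -0.41 with loess. Replicate numbers of the normal libraries did not pair them, since same-numbered libraries correlated at -0.07 to 0.10. With the replicate block, NK over T called 0 family genes, and 7 of 68 single calls or values lost significance. No paired analysis was possible for the lymphomas because their labels carry no replicate numbers. Depth was lowest in NK cells, at 417107 to 596601 counts, where 12 to 23 of the 82 peaks had no count in a library.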
